A study of Mus musculus with 8 samples.

Results

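The subunit and inhibitor genes of the NF-kappa B system were followed in RNA-seq libraries labelled as skin wounds given PBS or recombinant FGF4 (rFGF4, fibroblast growth factor 4). The 10 genes are the 5 subunit genes NFKB1, NFKB2, REL, RELA and RELB, and the 5 inhibitor or feedback genes NFKBIA, NFKBIE, NFKBIZ, TNFAIP3 and BCL3. They were picked by name from the gene table, which holds 58304 genes after Y-linked genes, XIST and TSIX were set aside, and all 10 were among the 11536 genes that could be tested. The study compared 4 libraries labelled PBS with 4 labelled rFGF4, from skin round the wounds of C57BL/6 mice aged 6 to 8 weeks, 6 days after wounding. Neither the dose of rFGF4 nor whether each library came from 1 animal is stated in the labels. If it did not, the p-values measure only the spread between libraries, which may be technical.

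The labels and the table disagree on the species. All 58304 gene identifiers were human and 0 were mouse, so the groups are called "PBS libraries" and "rFGF4 libraries" after the sample labels (the table names its columns C and FGF4), and no value is ascribed to mouse wounds. The libraries held 62044121 to 73680756 counts. All 7 basal keratinocyte markers and all 5 simple epithelium markers stood at a mean FPKM (fragments by gene length and library size) of at least 1. None of 6 fibroblast, 7 T and B cell or 4 melanocyte markers did, with CD3D, CD2, CD8A, MS4A1 and TYR at 0 counts in every library. Skin tissue would hold several of these cell types. The markers are given as levels only, and the origin of the libraries was not tested. Of the myeloid and endothelial markers, CD68 and CDH5 were at that level, 1 of 6 and 1 of 5.

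NF-kappa B is a family of dimeric transcription factors that switch on inflammatory and survival genes. In resting cells the dimers are held in the cytoplasm by IkB proteins. Signals from cytokine and microbial receptors activate the IKK kinases, which mark the inhibitors for destruction and free the dimers, and several inhibitor genes are themselves targets of the factor, which closes a feedback loop. NFKB1 and NFKB2 encode long precursors that are cut to short DNA-binding subunits without an activation domain. RELA, REL and RELB encode the subunits that carry one. Keratinocytes use the pathway in their response to interleukin-1 and TNF.

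The level of each gene per length was compared on the FPKM scale. NFKB1 was the highest in the PBS libraries, at 18.7 ± 0.462 FPKM (mean ± SD, n = 4). It was followed by NFKBIA at 11.9 ± 0.993, RELA at 10.1 ± 1.92 and NFKB2 at 6.93 ± 0.125 FPKM. BCL3 (3.88 ± 0.180), NFKBIE (3.34 ± 0.685), NFKBIZ (2.65 ± 0.617) and RELB (2.55 ± 0.334) came next. REL (1.61 ± 0.476) and TNFAIP3 (1.42 ± 0.0892) were the lowest. The ranges of neighbours in this order overlapped, except between NFKB1 and NFKBIA, between RELA and NFKB2 and between NFKB2 and BCL3. In the rFGF4 libraries NFKB1 again led, at 19.4 ± 0.824 FPKM. There, 3 neighbouring pairs stood in the opposite order, with RELA (10.6 ± 3.44) above NFKBIA (10.1 ± 0.983), RELB (3.39 ± 0.458) above NFKBIZ (2.55 ± 0.704), and TNFAIP3 (2.08 ± 0.336) above REL (1.34 ± 0.672). Within each of these pairs the libraries overlapped.

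**Figure D1:**
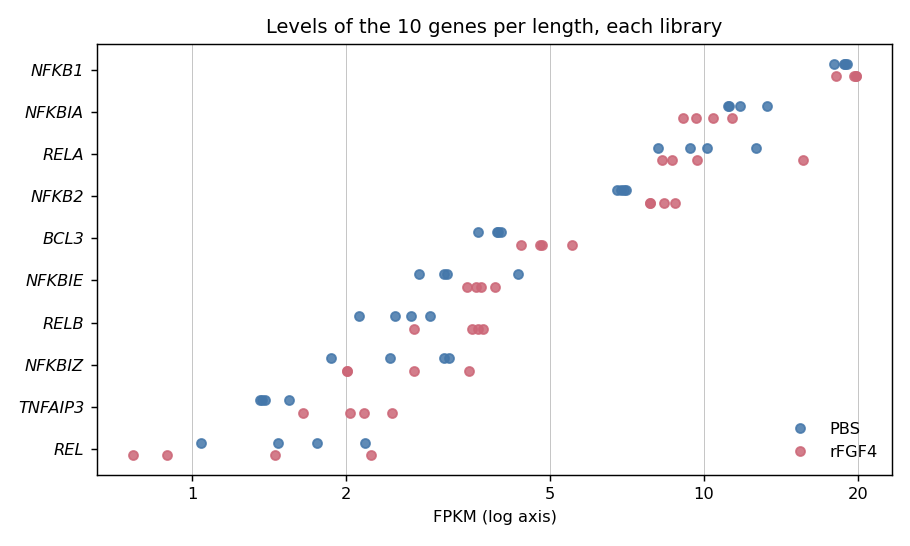
FPKM of the 10 genes on a log axis, 1 point per library, PBS in blue and rFGF4 in red, ordered by mean level. NFKB1 lies near 19 FPKM in both groups, and the points of REL are spread from 0.766 to 2.24 FPKM.

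NFKB1 made up 47.0 ± 3.43% of the summed FPKM of the 5 subunits in the PBS libraries and 45.4 ± 3.33% in the rFGF4 libraries. RELA made up 25.2 ± 3.53% and 24.3 ± 5.46%, NFKB2 17.4 ± 1.04% and 19.3 ± 2.29%, RELB 6.38 ± 0.539% and 7.93 ± 1.16%, and REL 4.01 ± 1.11% and 3.07 ± 1.44%. The sum ran from 37.4 to 42.3 FPKM in the PBS libraries and from 39.1 to 48.3 FPKM in the rFGF4 libraries, so the groups overlapped.

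Of the 10 genes, 2 rose in the rFGF4 libraries, the subunit gene NFKB2 and the feedback gene TNFAIP3, and 8 did not pass the test (edgeR quasi-likelihood, Benjamini-Hochberg adjusted over 11536 genes, threshold 0.05). Among all tested genes, 5.49% were called higher and 4.54% lower. No member was called lower, and 0 were lower at an unadjusted p under 0.05, where 4 were higher. Of all 11536 tested genes, 2896 had an unadjusted p under 0.05, in either direction. DESeq2 called 4 higher and 0 lower, adding BCL3 and RELB. Of all 11536 tested genes it called 982 higher and 846 lower. The groups did not overlap in CPM (counts scaled to a common library size with TMM factors) for 4 of the 10, all with the rFGF4 libraries above, against 10.1% of tested genes in that direction and 9.26% in the other. The median log2 fold change of the 10 was 0.12, beside 0.00 for all tested genes. In bulk RNA, a change in the share of cells and a change in RNA per cell cannot be told apart.

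**Figure D2:**
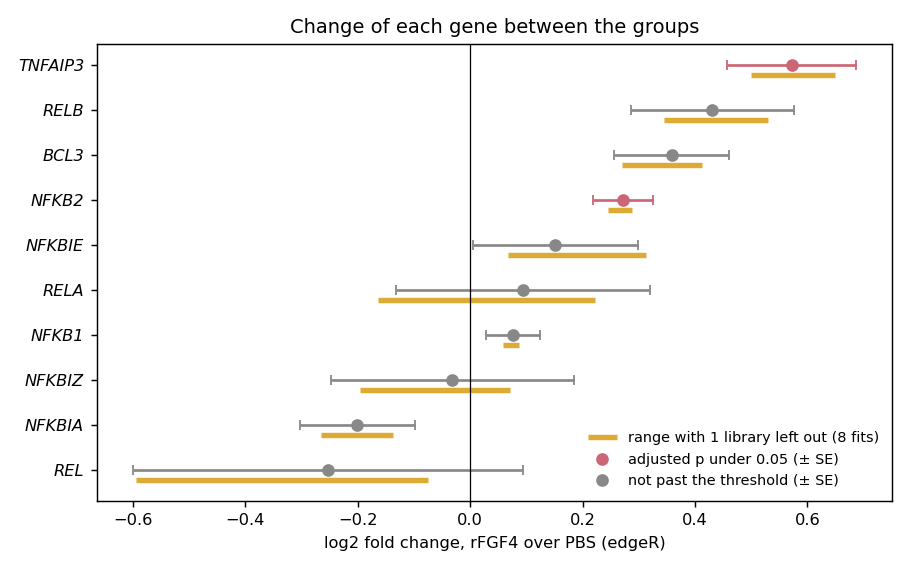
Log2 fold change (rFGF4 over PBS, edgeR) of the 10 genes with its SE, red where the adjusted p was under 0.05, and below each in yellow the range over the 8 fits that left out 1 library. TNFAIP3 (0.57) and NFKB2 (0.27) are the red points, and the yellow bars of RELA and NFKBIZ cross 0.

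NFKB2, the precursor subunit of the non-canonical branch of the pathway and the usual partner of RELB, lies on chromosome 10 from 102394110 to 102402524 on the plus strand. Coordinates are printed as the table gives them, on a build that neither the labels nor the header name. It stood at 38.5, 39.7, 39.2 and 38.9 CPM in PBS replicates 1 to 4 and at 49.9, 46.5, 45.6 and 46.8 CPM in rFGF4 replicates 1 to 4. Values of the other genes are given in the same order. Every rFGF4 library was above every PBS library, and the PBS libraries lay within little more than 1 CPM of each other. NFKB2 rose by 0.27 on the log2 scale (SE 0.05, adjusted p = 0.0155), or 1.21-fold. The call ended without PBS replicate 1 (adjusted p = 0.0523), PBS replicate 2 (0.0540) or rFGF4 replicate 1 (0.0563). The log2 fold change stayed between 0.24 and 0.29 with any 1 library left out.

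NFKB1, the precursor subunit of the canonical branch, on chromosome 4 from 102501331 to 102617302, was close in all libraries. It measured 142.8, 137.9, 142.4 and 145.4 CPM across the PBS libraries and 151.8, 147.0, 155.0 and 145.6 CPM in the rFGF4 libraries. The groups did not overlap in CPM, but the nearest libraries were 145.39 and 145.55 CPM, and in FPKM the groups did overlap. Its log2 fold change of 0.08 (SE 0.05) did not pass (adjusted p = 0.378). Per unit of NFKB1, NFKB2 measured 0.364, 0.388, 0.371 and 0.360 in FPKM in the PBS libraries and 0.443, 0.426, 0.396 and 0.433 in the rFGF4 libraries. This ratio, which does not depend on library scaling and was chosen after the values were seen, was 1.15 times higher in the rFGF4 libraries, with 4 of 4 above every PBS library. It is given as a description of these libraries, without a p-value.

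RELB, the activating subunit that pairs with the product of NFKB2, lies on chromosome 19 from 45001449 to 45038198. It measured 8.97, 10.6, 7.54 and 9.85 CPM across the PBS libraries and 9.83, 13.2, 13.1 and 13.8 CPM in the rFGF4 libraries. In the rFGF4 group, replicates 2, 3 and 4 were above every PBS library, and replicate 1 lay within the PBS range. The log2 fold change was 0.43 (SE 0.14), larger than that of NFKB2, and did not pass (adjusted p = 0.103). It passed under 1 of 18 alternatives, DESeq2 (adjusted p = 0.0466). The lowest of these libraries held 472 counts of RELB, or about 118 fragments if 1 fragment was worth 4 counts. The RELB to RELA ratio in FPKM was 0.255 ± 0.0171 in the PBS libraries and 0.338 ± 0.0840 in the rFGF4 libraries, and rFGF4 replicate 3 (0.225) lay below every PBS library.

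RELA encodes the main activating subunit of the canonical dimer and lies on chromosome 11 from 65653597 to 65663090 on the minus strand. It measured 60.8, 83.4, 52.3 and 67.3 CPM across the PBS libraries and 54.3, 62.4, 105.1 and 59.8 CPM in the rFGF4 libraries. The groups overlapped, and rFGF4 replicate 3 was above all other libraries. The log2 fold change was 0.09 (SE 0.23, adjusted p = 0.843). It was −0.16 without rFGF4 replicate 3 and −0.002 without PBS replicate 3, so its sign depended on single libraries.

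REL encodes c-Rel, an activating subunit best known from lymphocytes, and lies on chromosome 2 from 60881521 to 60931610. It was the most variable of the 10, at 33.9, 27.7, 16.1 and 23.5 CPM across the PBS libraries and 14.1, 34.7, 23.6 and 12.7 CPM in the rFGF4 libraries. High and low libraries occurred in both groups. Its log2 fold change of −0.25 (SE 0.35) did not pass (adjusted p = 0.717). A non-coding RNA row, AC010733, overlaps REL by 5702 bases on the same strand, so counts of both are uncertain. That row measured 12.0, 13.6, 29.8 and 10.3 CPM across the PBS libraries and 23.5, 9.31, 6.30 and 10.9 CPM in the rFGF4 libraries. It was highest in PBS replicate 3, where REL was lowest in its group, and next highest in rFGF4 replicate 1, where REL was low too. In rFGF4 replicate 4, where REL was lowest of all (12.7 CPM), that row was not high (10.9 CPM). The 2 rows summed to 41.8 ± 5.74 CPM (PBS) and 33.8 ± 8.91 CPM (rFGF4), which also overlapped. Whether fragments were exchanged between the rows was not tested.

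**Figure D3:**
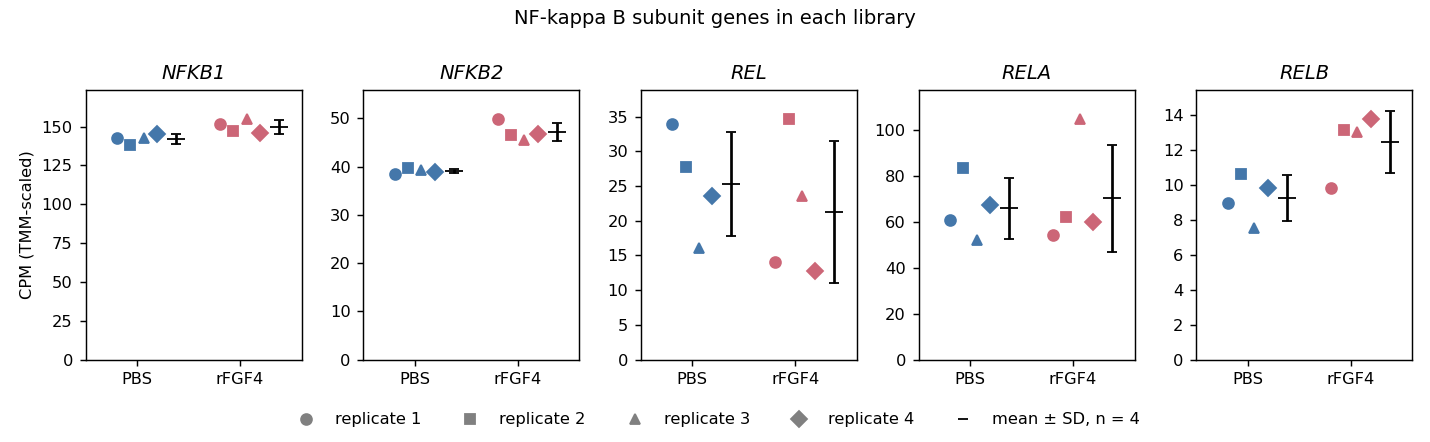
CPM of the 5 subunit genes in each library, with the replicate number as the marker shape and mean ± SD (n = 4) in black, each axis starting at 0. NFKB2 is separated by group, at 38.5 to 39.7 and 45.6 to 49.9 CPM, while REL and RELA spread widely within both groups.

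The subunits thus differed in how finely a change could be measured. The pooled within-group SD of log2 CPM was 0.037 for NFKB1 and 0.042 for NFKB2, at percentiles 0.702 and 1.24 of all tested genes. It was 0.57 for REL, at percentile 94.5, and 0.36 for RELA, at percentile 86.7. Among the 500 tested genes nearest in level, NFKB1 still lay at percentile 1.80 and REL at 96.0. RELB lay between them, at 0.22 and percentile 67.8.

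TNFAIP3 encodes a ubiquitin-editing enzyme that shuts down signalling upstream of the IKK kinases and is itself induced by NF-kappa B. It lies on chromosome 6 from 137867214 to 137883312. It measured 8.29, 9.39, 8.08 and 8.44 CPM across the PBS libraries and 13.2, 14.6, 12.6 and 10.5 CPM in the rFGF4 libraries. The groups did not overlap, with rFGF4 replicate 4 the nearest to the PBS range. TNFAIP3 rose by 0.57 on the log2 scale (SE 0.12, adjusted p = 0.0172), or 1.49-fold. The call ended without PBS replicate 1 (adjusted p = 0.0542) or 3 (0.0519), or rFGF4 replicate 1 (0.0537) or 3 (0.0505). The log2 fold change was 0.50 to 0.65 when any 1 library was left out. An antisense row, AL357060, overlaps TNFAIP3 by 1020 bases, and no source here says if fragments were counted by strand. It held 22 to 53 counts in the PBS libraries and 65 to 87 in the rFGF4 libraries, so it too stood higher, against 506 to 1061 counts of TNFAIP3 over the 8 libraries. How far counts were shared between them was not tested.

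NFKBIA encodes the classical inhibitor IkB alpha, which binds the canonical dimer and is rapidly remade after activation. On chromosome 14 from 35401511 to 35404746, it measured 31.6, 38.0, 31.3 and 34.0 CPM across the PBS libraries and 29.7, 25.4, 33.2 and 29.0 CPM in the rFGF4 libraries. The groups overlapped through rFGF4 replicate 3, and the other rFGF4 libraries were below every PBS library. The log2 fold change was −0.20 (SE 0.10) and did not pass (adjusted p = 0.268). Both NFKBIA and TNFAIP3 are feedback targets, and their ratio was compared after the values were seen. In FPKM, TNFAIP3 per unit of NFKBIA was 0.124, 0.116, 0.122 and 0.116 in the PBS libraries and 0.208, 0.270, 0.179 and 0.170 in the rFGF4 libraries. It was 1.73 times higher in the rFGF4 libraries, with 4 of 4 above every PBS library, again as a description without a p-value.

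BCL3 encodes a nuclear member of the IkB family that binds the products of NFKB1 and NFKB2 on DNA and can act as a coactivator. On chromosome 19 from 44747705 to 44759486, it measured 13.3, 14.7, 14.7 and 15.0 CPM across the PBS libraries and 16.4, 17.5, 18.4 and 21.6 CPM in the rFGF4 libraries. The groups did not overlap. The log2 fold change of 0.36 (SE 0.10), or 1.28-fold, did not pass (adjusted p = 0.0627). It passed with limma on log2(FPKM + 1) (adjusted p = 0.0479), with a pseudocount of 0.1 (0.0453) and with DESeq2 (0.0145), and it did not pass in edgeR with any 1 library left out (0.0641 to 0.1496).

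NFKBIE encodes IkB epsilon, a slower cytoplasmic inhibitor, and lies on chromosome 6 from 44258166 to 44265788. It measured 8.50, 9.66, 9.60 and 13.6 CPM across the PBS libraries and 12.1, 10.9, 11.7 and 11.2 CPM in the rFGF4 libraries. The highest and the lowest library were both labelled PBS. Its log2 fold change was 0.15 (SE 0.15, adjusted p = 0.583), and 0.31 without PBS replicate 4.

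NFKBIZ encodes IkB zeta, a nuclear cofactor that keratinocytes use in their response to interleukin-17, and lies on chromosome 3 from 101827991 to 101859523. It measured 22.3, 13.3, 21.7 and 17.5 CPM across the PBS libraries and 14.3, 24.2, 19.7 and 15.0 CPM in the rFGF4 libraries. The groups overlapped over almost their whole range. The log2 fold change was −0.03 (SE 0.22, adjusted p = 0.951), between −0.20 and 0.07 with 1 library left out. A same-strand gene, NXPE3, overlaps NFKBIZ by 241 bases and held 1198 to 2248 counts, against 848 to 1763 of NFKBIZ, so counts in the shared stretch are uncertain. Within the rFGF4 group the libraries stood in the same order for NFKBIZ as for REL except for replicates 1 and 4, with replicate 2 the highest for both genes. In the PBS group the orders differed more. Replicate 1 was the highest for both, but replicate 2 was the lowest for NFKBIZ and replicate 3 the lowest for REL.

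**Figure D4:**
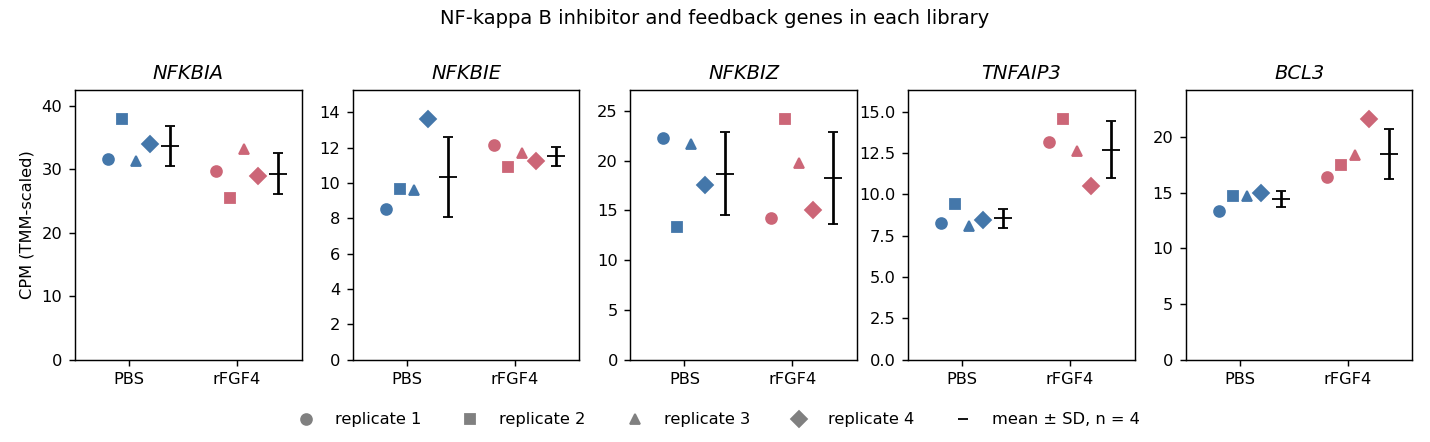
CPM of the 5 inhibitor and feedback genes in each library, with the replicate number as the marker shape and mean ± SD (n = 4) in black, each axis starting at 0. TNFAIP3 (8.08 to 9.39 and 10.5 to 14.6 CPM) and BCL3 (13.3 to 15.0 and 16.4 to 21.6 CPM) are separated by group, and NFKBIA is lower in 3 of 4 rFGF4 libraries.

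The deposited annotation gave the 10 genes 3 to 27 transcripts each, the fewest for REL and the most for RELA. It listed 6 of them in the KEGG NF-kappa B signalling pathway, namely NFKB1, NFKB2, RELA, RELB, NFKBIA and TNFAIP3. Both genes that rose are in that pathway, as are 4 of the 8 that did not pass.

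The rest of the pathway was read from 4 lists of 90 genes set by their textbook roles, some of whose results were known from earlier work on these data. Of 13 tested receptor and adaptor genes among 23, 1 rose, 0 fell and 12 did not pass, with a list median of −0.00. Over all tested genes, 5.49% were called higher and 4.54% lower. TRAF2, an adaptor that carries signals from TNF receptors, measured 58.5, 62.6, 55.5 and 56.9 CPM across the PBS libraries and 67.7, 67.7, 67.4 and 75.5 CPM in the rFGF4 libraries. It rose by 0.25 (SE 0.06, adjusted p = 0.0407). This call ended with any 1 library left out (adjusted p = 0.0547 to 0.112) and with each looser filter on low values (0.0521 to 0.0957). IRAK4, a kinase below interleukin-1 receptors that was named after its values were seen, had the log2 fold change farthest from 0 among these 13, at 18.7 ± 7.73 and 8.66 ± 4.02 CPM. The groups overlapped and it did not pass in edgeR (log2 fold change −1.11, SE 0.37, adjusted p = 0.104). IRAK4 passed under 1 of 18 alternatives, DESeq2 (adjusted p = 0.0139).

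None of the 20 tested kinase and ubiquitin ligase genes among 21 passed in edgeR. At an unadjusted p under 0.05 there were 2, beside 2896 of all 11536 tested genes. DESeq2 called 1 of the 20, beside 1828 of all tested genes. The list median was −0.01. The list includes CHUK, IKBKB and IKBKG, which form the IKK complex. The smallest p among them was that of MAP3K8, a kinase held inactive by the NFKB1 precursor, also named after its values were seen. It measured 10.6, 8.60, 11.5 and 8.05 CPM across the PBS libraries and 6.94, 6.79, 7.16 and 7.14 CPM in the rFGF4 libraries, without overlap. Its log2 fold change of −0.47 (SE 0.13) did not pass in edgeR (adjusted p = 0.0534). MAP3K8 passed under 2 of 18 alternatives, DESeq2 (adjusted p = 0.0101) and edgeR without PBS replicate 4 (0.0381). With 1 library left out its edgeR adjusted p reached 0.133. None of 12 tested other negative regulators among 15 passed in edgeR, with 1 at an unadjusted p under 0.05 and 1 called by DESeq2, and a median of −0.12. The gene in both cases was CYLD, a deubiquitinase that restrains the pathway, named after its values were seen, at 34.2 ± 5.45 and 24.7 ± 3.33 CPM. Its log2 fold change of −0.47 (SE 0.14) did not pass in edgeR (adjusted p = 0.0648). CYLD passed under 2 of 18 alternatives, DESeq2 (adjusted p = 0.0136) and edgeR without rFGF4 replicate 2 (0.0351). With 1 library left out its edgeR adjusted p reached 0.148.

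Of 15 tested target genes among 31, 5 rose, 1 fell and 9 did not pass, with a median of 0.11. Beside them, 5.49% of all tested genes were called higher and 4.54% lower. The anti-apoptotic early response gene IER3 rose by 1.32 (SE 0.09), the chemokine CXCL1 by 1.31 (SE 0.11), and the cytokines IL1A by 1.03 (SE 0.12) and IL1B by 0.95 (SE 0.07) (adjusted p = 0.000279, 0.000471, 0.0017 and 0.00028). IL1B measured 66.8, 64.1, 67.6 and 72.5 CPM across the PBS libraries and 121.8, 123.1, 137.9 and 140.4 CPM in the rFGF4 libraries. CD83, a surface protein of activated cells named outside the rule, measured 10.2 ± 1.27 CPM with PBS and 16.1 ± 1.67 CPM with rFGF4 and rose by 0.66 (SE 0.12, adjusted p = 0.0116). IRF1, a transcription factor induced by both interferon and NF-kappa B, moved the other way and fell by 0.57 (SE 0.09, adjusted p = 0.00639). It measured 89.0, 99.5, 85.8 and 103.1 CPM across the PBS libraries and 62.2, 55.8, 66.4 and 69.7 CPM in the rFGF4 libraries, without overlap. ICAM1, CCL2, CCL5, SOD2, LCN2, C3, GADD45B, BCL2L1 and TNFAIP2 did not pass. SOD2 has 2 rows in the table, and the one with more counts was used.

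**Figure D5:**
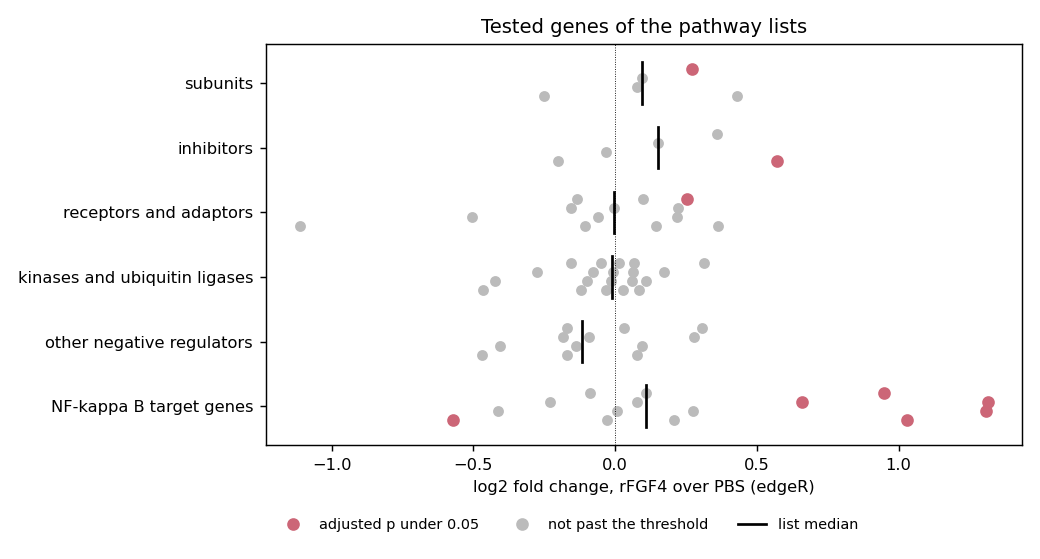
Log2 fold change (rFGF4 over PBS, edgeR) of every tested gene of the member groups and the 4 pathway lists, red where the adjusted p was under 0.05, with a black bar at each list's median. Of the 20 kinase and ubiquitin ligase genes none is red, and of the 15 target genes 6 are, 5 to the right and 1 (IRF1) to the left.

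Markers of other cells were set beside these changes. The summed FPKM of the basal keratinocyte markers did not overlap, at 2066 to 2346 (PBS) and 1909 to 2045 (rFGF4). KRT14 and KRT5, the 2 highest of the 7, had log2 fold changes of −0.17 and −0.22. Neither passed (edgeR adjusted p = 0.123 and 0.253). The other 5 had log2 fold changes above 0 and did not pass either. In CPM, KRT14 was lower and ITGB4 (0.20, adjusted p = 0.0998) higher without overlap. The summed FPKM of the simple epithelium markers was 955 to 1065 (PBS) and 849 to 1017 (rFGF4). Of these markers KRT18, a keratin of simple epithelia, rose by 0.74 (SE 0.11, adjusted p = 0.00449), and the other 4 did not pass. KRT19, the highest of them, had a log2 fold change of −0.32 (adjusted p = 0.0715) and CDH1 one of −0.25. KRT8 and EPCAM stood at 0.16 and 0.05. The myeloid markers summed to 7.72 to 8.86 and 8.16 to 11.04 FPKM, nearly all from CD68, with PTPRC, the pan-leukocyte gene, at 0.0106 FPKM or less. The endothelial markers summed to 1.86 to 3.09 and 3.08 to 4.09 FPKM, and the fibroblast markers to 0.776 to 0.864 and 0.411 to 0.511 FPKM. The T and B cell markers summed to at most 0.0285 FPKM and the melanocyte markers to 0.365 to 0.467 and 0.206 to 0.577 FPKM. The part of these differences in the changes of NFKB2 and TNFAIP3 was not tested.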

How the data were processed

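RNA-seq was given for 8 libraries, 4 per group, in 1 table. Per the file headers the authors deposited 2 columns per library, FPKM (0.0001 in place of 0) and counts. HISAT2 2.0 and StringTie 1.3.0 are named, per the submitters' processing notes, without their steps. The deposited counts are whole numbers but are taken as estimated counts, since low values pile up at 4 (9781 entries against 3485 at 3). Columns named C and FGF4 were matched to the PBS and rFGF4 samples by name and replicate number. Build, annotation and strand setting: not given in the sources used here. Since identifiers are human, Y-linked genes, XIST and TSIX were left out (521 rows), and mouse reference sequences were not used.

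Genes whose FPKM averaged 1 or more were tested with edgeR 4.0.16 in R 4.3.3 (TMM, glmQLFit, glmQLFTest, two-sided, Benjamini-Hochberg). TMM factors were 0.958 to 1.03. SEs are those implied by the test statistic. Levels are CPM over the tested genes' totals with TMM factors. No 2 libraries held identical values. Between-library correlations of log2(CPM + 0.1) across genes were 0.958 to 0.976. For members, counts ran from 472 to 11026 per library. Alternatives used DESeq2 1.42.0 and limma 3.58.1. Named genes were the 10 members, up to 4 called genes per list and direction, and the gene most like each called member. CYLD, MAP3K8, IRAK4, CD83, TLR3, the genes below the filter, the markers and the ratios were named after values were seen. Of 90 listed pathway genes, 1 had no row. Members and lists were chosen with earlier results of these data known.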

Additional observations from a re-analysis of the deposited data

Results flagged for a closer look

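Of 40 groups of 4 libraries checked (20 named genes in 2 groups), 2 held a library far from the rest of its group, and chance alone would mark about 1 in 20 groups. RELA stood at 105.1 CPM in rFGF4 replicate 3, with the other rFGF4 libraries at 54.3 to 62.4 CPM. TRAF2 stood at 75.5 CPM in rFGF4 replicate 4, with the others at 67.4 to 67.7 CPM, all above the PBS libraries.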

How the results depend on the processing

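NFKB2 passed under 15 and TNFAIP3 under 14 of 18 alternatives, and both kept their direction under all 18. All of the losses came in fits that left out 1 library. Whether they came from the smaller number of samples or from the library dropped was not tested. DESeq2 called 1828 genes in all against 1157, 4 members against 2, 2 receptor and adaptor genes against 1, and 1 against 0 in both the kinase and ubiquitin ligase list and the other negative regulators; the cause was not tested. With 1 library left out, edgeR called 601 to 1166 genes, 0 to 2 members, 0 to 1 receptor and adaptor genes, 0 to 1 kinase and ubiquitin ligase genes, 0 to 1 other negative regulators and 6 target genes. No member was called without PBS replicate 1 or rFGF4 replicate 1. The sign turned for RELA (−0.16 to 0.22 with 1 library left out) and NFKBIZ (−0.196 to 0.0707, above 0 when PBS replicate 1 or 3, or rFGF4 replicate 1 or 4, was dropped), neither of which passed anywhere. Equal replicate numbers are not shown to pair the samples: same-numbered libraries correlated at −0.02 to 0.23, over 0.1 in 2 of 4 pairs, and 3 of 4 PBS libraries correlated best with their own number. With the replicate block 1013 genes and 2 members were called, NFKB2 with adjusted p = 0.0468 and TNFAIP3 with 0.0340, TRAF2 was not (0.0742), and the receptor gene TLR3 was called lower (−0.52, adjusted p = 0.0310, against 0.331 without the block), which leaves 0 higher and 1 lower in that list. RELB and TNFAIP3 had the fewest counts of the 10 genes, 472 and 506 in their lowest libraries.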

Other observations

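Some pathway genes lay below the filter on low values and were tested only when genes averaging 0.1 FPKM or more were let in. There CXCL8, a neutrophil chemokine and NF-kappa B target, rose by 2.09 (SE 0.27, edgeR adjusted p = 0.00401), from 1.16, 0.991, 1.01 and 0.486 CPM in the PBS libraries to 3.80, 4.53, 4.09 and 3.02 CPM in the rFGF4 libraries. IRAK2, a kinase of the interleukin-1 receptor complex, rose by 1.78 (SE 0.33, edgeR adjusted p = 0.0156), from 12 to 28 counts in the PBS libraries to 55 to 84 counts in the rFGF4 libraries. Its mean was 0.0686 FPKM in the PBS libraries and 0.234 FPKM in the rFGF4 libraries. It thus reached this filter only through the rFGF4 libraries, and its PBS values lay near the floor. CXCL8 and IRAK2 were 2 of 17 such genes, of which 10 had an unadjusted p under 0.05, and the other 15 did not pass. Of all 17964 genes tested with this filter, 1167 were called, 615 of them higher, and 3724 had an unadjusted p under 0.05. The smallest adjusted p among those 15 was that of the growth factor CSF2 (adjusted p = 0.0693), at 0, 0, 6 and 8 counts in the PBS libraries and 49, 38, 30 and 33 in the rFGF4 libraries. CSF2 too reached the filter only through the rFGF4 libraries (mean FPKM 0.0565 with PBS and 0.552 with rFGF4). It was followed by the interleukin-1 receptor gene IL1R1 (log2 fold change 0.72, adjusted p = 0.0773) and the prostaglandin synthase gene PTGS2 (0.42, adjusted p = 0.0847). The TNF receptor gene TNFRSF1B had a log2 fold change of 1.10 (adjusted p = 0.129). The receptor gene TLR5 was lower, with a log2 fold change of −0.84 (edgeR unadjusted p = 0.0291, adjusted p = 0.178). TLR5 reached the filter only through the PBS libraries (mean FPKM 0.137 with PBS and 0.0750 with rFGF4).

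The tested gene outside the members whose log2 CPM followed that of NFKB2 most closely over the 8 libraries was BCAR3 (Pearson r = 0.991), and 73 genes had an r over 0.95. For TNFAIP3 it was LTV1 (r = 0.979), with 26 genes over 0.95. Both values reflect the difference between the groups as well as the spread within them.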
